A study of Mus musculus with 3 samples.

Results

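Transcripts of Wnt ligands, Frizzled receptors, secreted Frizzled-related proteins (SFRP) and Dickkopf proteins (DKK) were followed in whole mouse ovaries. The genes were taken as every non-control probe whose gene name on the array begins with Wnt, Fzd, Sfrp or Dkk and a number. This gave 37 of the 27976 gene names on the arrays: 19 Wnt, 10 Fzd, 4 Sfrp and 4 Dkk genes, read by 49 probes in 58 spots. Of the 37 genes, 26 were bright enough to be tested, among 17856 genes in all. Conditional knockout (cKO) females carried floxed alleles of the clock gene Bmal1 (symbol Arntl) on both chromosomes, Bmal1 fx/fx, and a Cre recombinase named for the Sf-1 gene. Control females carried the same floxed alleles without Cre and are called wild type in the labels. SF-1 is the nuclear receptor of steroid-producing cells, so other ovarian cells may keep the floxed alleles intact. All females were C57Bl/6J, 10 weeks old, fed ad libitum under equal light and dark phases, and killed 3.5 days post copulation at Zeitgeber time (ZT) 12, the onset of darkness. Each of the 3 arrays set RNA pooled from 3 cKO animals (cy3) against RNA pooled from 3 controls (Cy5), and with pools that differed between arrays the data cover 9 animals per genotype.

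Wnt proteins are secreted lipid-modified ligands that bind Frizzled receptors together with LRP co-receptors. Binding stops the destruction complex from breaking down beta-catenin, which then enters the nucleus and activates target genes with TCF and LEF factors, while other Wnt signals act without beta-catenin on cell polarity and movement. SFRPs bind Wnt ligands outside the cell, and DKK proteins of the Dkk1 type block the LRP co-receptors. In the ovary, Wnt4 with Rspo1 directs the female fate of the gonad, and Wnt4, Fzd4 and Sfrp4 are known for roles in follicles and in the corpus luteum.

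The sequences of the probes on which the results turn are shown first, because each gene's value is that of 1 probe of 60 bases. The first 30 bases of each probe are given, put in lower case here. For Fzd7 and Fzd10 both probes are shown, since they gave opposite signs. The longest run that the 2 probes share was 7 bases for Fzd7 and 6 for Fzd10, so the probes of each pair read different stretches.
Wnt10a probe: tttcacttaacagatatttatttttgcgct
Sfrp2 probe: tcggcatctaagtcttcaaacatttcgttg
Sfrp4 probe: cacagttgtctgtgtgcatactgtgtaaga
Fzd7 brighter probe: aagggaaggtgaacttcaaagtgattctgg
Fzd7 other probe: agccccgactttacagtcttcatgatcaag
Fzd10 brighter probe: ttgactctctgaattgttaaacaaatgatt
Fzd10 other probe: tgcaagaacaggacattcggagcccaaatg

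BMAL1 with its partner CLOCK binds the E-box CACGTG, so the promoters were read for it. RefSeq windows of 250 bases before the annotated start (GRCm38.p6) were matched by symbol for 25 of the 37 genes, 28 windows in all. Genes without a matched window were not read for either motif. These were Wnt5a, Wnt7b, Wnt8a, Wnt10a, Fzd2, Fzd3, Fzd6, Fzd8, Sfrp1, Sfrp4, Dkk3 and Dkk4. Some of the windows, including those of Wnt9a, Wnt11 and Wnt5b, lay partly or wholly inside the annotated extent of the gene. The palindrome CACGTG was in 2 of the 28 windows (7.14%), those of Fzd9 and Wnt9a, starting 88 and 228 bases before the annotated start. Among all 32851 windows of this length, 6.02% held it. The TCF motifs CTTTGAA and CTTTGAT, on either strand, were in 3 windows (10.7%), of Dkk1, Wnt11 and Wnt5b, against 7.48% of all windows. GC content stood apart more, with a median of 69.4% in the 28 windows and 52.4% in all. Shown 5′ to 3′ are the Fzd9 window, which holds the E-box (in capitals), and those of Fzd7 and Wnt4, which have none. Fzd7 had the highest ratio among the receptors, and Wnt4 differed most between arrays among the ligands.
Fzd9, chr5:135251048-135251297, minus strand: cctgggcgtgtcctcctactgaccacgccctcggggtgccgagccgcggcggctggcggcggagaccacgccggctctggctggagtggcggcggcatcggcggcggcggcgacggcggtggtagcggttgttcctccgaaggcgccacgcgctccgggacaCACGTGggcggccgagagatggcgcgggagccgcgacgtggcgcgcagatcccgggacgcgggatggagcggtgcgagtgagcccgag
Fzd7, chr1:59481897-59482146, plus strand: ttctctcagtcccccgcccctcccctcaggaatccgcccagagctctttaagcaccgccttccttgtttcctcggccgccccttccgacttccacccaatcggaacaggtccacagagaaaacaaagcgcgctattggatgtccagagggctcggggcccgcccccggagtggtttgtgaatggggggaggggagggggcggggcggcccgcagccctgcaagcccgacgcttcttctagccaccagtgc
Wnt4, chr4:137277385-137277634, plus strand: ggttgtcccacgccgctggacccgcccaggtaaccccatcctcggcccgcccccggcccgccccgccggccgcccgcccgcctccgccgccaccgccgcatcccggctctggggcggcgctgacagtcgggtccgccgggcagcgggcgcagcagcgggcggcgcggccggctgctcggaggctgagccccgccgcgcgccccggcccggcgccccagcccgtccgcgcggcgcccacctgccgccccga

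Values below are log2 ratios of cKO over control, and errors are SDs over the 3 arrays (n = 3) after loess normalisation unless the scanner's own ratio is named. The arrays did not run alike. Across the 17856 genes, which are not independent replicates, ratios of arrays 1 and 2 correlated with r = 0.601, those of arrays 1 and 3 with 0.213 and those of arrays 2 and 3 with 0.00872 (0.492, 0.0988 and -0.161 with the scanner's ratios). Arrays 2 and 3 shared a slide, and array 1 was on a different one. All arrays had cKO RNA in cy3, so dye and genotype effects on a probe cannot be told apart. The p-values rest only on the spread between 3 pairs of pools and on the spread that limma borrows from all genes. Arntl itself gave 0.27, 0.13 and -0.24, a mean of 0.06 ± 0.27 (limma, adjusted p = 0.932), from 1 probe that may lie outside the deleted part and then checks nothing. Ovarian markers were present: 12 of 12 oocyte, 10 of 10 granulosa and 8 of 8 luteal genes were above background, while oviduct epithelium had 5 of 8. Precision is limited by having 3 arrays.

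No Wnt, Frizzled, SFRP or DKK gene passed the threshold of an adjusted p of 0.05 by limma (0 of 26, where 0.179% of all genes tested passed, 0.0728% higher and 0.106% lower in cKO). At an unadjusted p under 0.05 there were 5 of 26, Wnt10a, Wnt2, Fzd7, Sfrp2 and Sfrp4, all higher in cKO. Among all genes 12.3% reached that mark, 5.9% higher and 6.43% lower in cKO. With array 1, 2 or 3 left out in turn, the count became 2, 2 and 7. Ratios were above 0 on all 3 arrays for 7 of the 26 (background 17.5%) and below 0 on all 3 for 1, Wnt11 (background 17.8%). Means lay above 0 for 18 of 26 genes and for 8927 of all 17856. The median of the 26 was 0.08, with 0.18, 0.12 and -0.03 on arrays 1 to 3, beside -4.9e-05 for all genes.

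**Figure D1:**
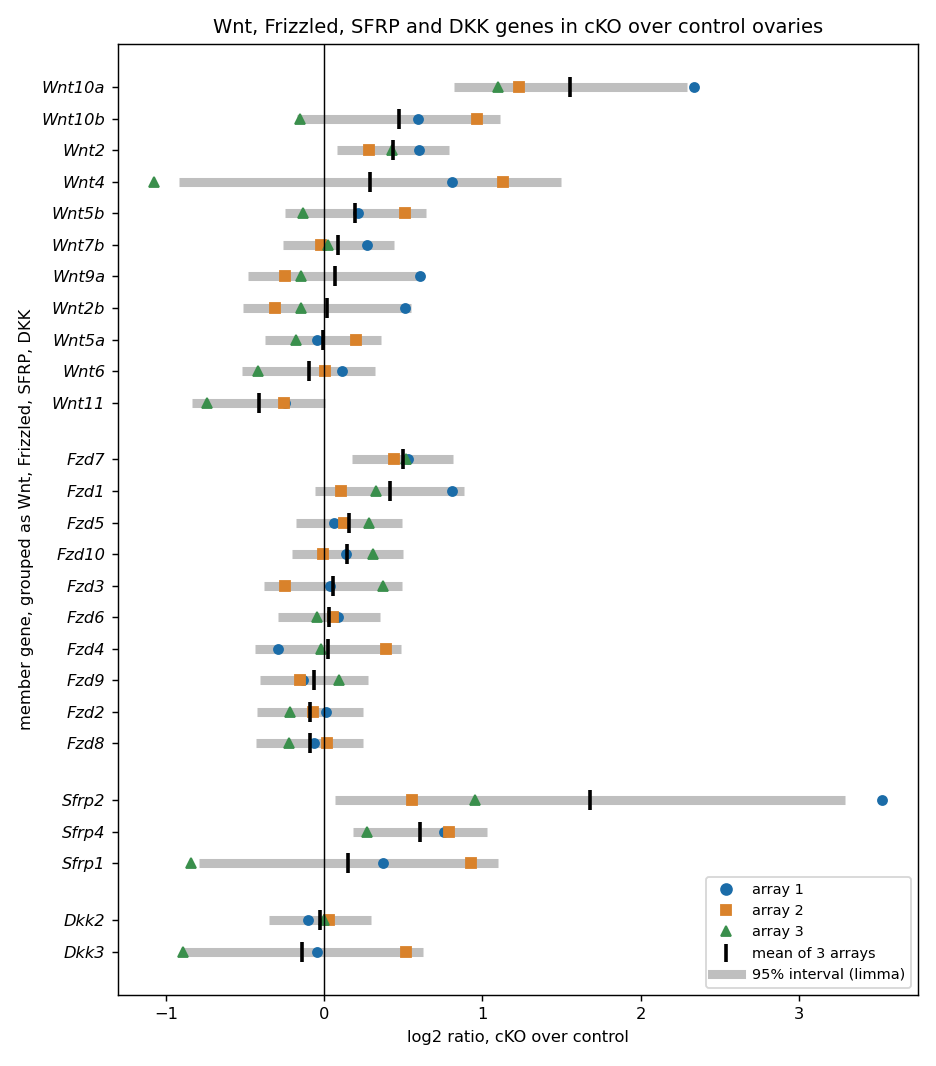
Log2 ratios of cKO over control ovaries (x axis) for the 26 Wnt, Frizzled, SFRP and DKK genes above background (y axis), with points for arrays 1 to 3, a black bar for the mean and a grey band for limma's 95% interval, which for means of 3 arrays borrows spread from all genes. Wnt10a lies at 1.10 or above on every array, Sfrp2 is drawn out by array 1 at 3.52, and Wnt4 and Sfrp1 have array 3 on the other side of 0.

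Among the ligands, 11 of 19 were tested and Wnt10a had the highest ratio. Wnt10a, a ligand of the beta-catenin branch, gave 2.34, 1.23 and 1.10 on arrays 1 to 3. All arrays were higher in cKO, array 1 most. The mean was 1.56 ± 0.68, a 2.94-fold difference (95% interval 0.82 to 2.29 on the log2 scale), with an unadjusted p of 0.0032 and an adjusted p of 0.216 by limma. The spot was clear of its local background in both channels: before normalisation, signal over background was 43.4, 10.8 and 10.5 in cKO and 6.85, 2.74 and 3.33 in control. The scanner's own ratios were 2.51, 1.61 and 1.46. On the slide shared by arrays 2 and 3 its mean was 1.16. The unadjusted p stayed under 0.05 and the sign the same in all 11 alternative analyses, whose adjusted p ran from 0.0558 to 0.562. Wnt10a ranked 41 from the top by ratio among all genes and 262 by p.

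Wnt2, another beta-catenin ligand, was higher in cKO on every array with 0.60, 0.28 and 0.43, a mean of 0.44 ± 0.16 (limma, adjusted p = 0.337). Its spot was dimmer, with signal over background of 6.98, 3.83 and 4.48 in cKO and 3.62, 2.05 and 2.63 in control. The scanner's ratios, which carry no offset that pulls dim spots toward 0, were 1.09, 0.64 and 0.93. Both versions put all arrays on the same side. Wnt11, a ligand best known for signalling without beta-catenin, gave -0.25, -0.26 and -0.74, a mean of -0.41 ± 0.28 (95% interval -0.83 to 0.0054; limma, unadjusted p = 0.052, adjusted p = 0.410). It was the lowest of the ligands, yet the scanner's ratio on array 1 was 0.03, with -0.14 and -0.71 on the others. The Wnt11 spot was dim too, with signal over background of 3.66, 2.68 and 3.00 in cKO and 3.59, 2.16 and 4.34 in control.

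Wnt4, the ligand of female gonad development, differed most between arrays among the ligands. Its ratios were 0.81, 1.13 and -1.07, so arrays 1 and 2 were higher in cKO and array 3 lower. The mean was 0.29 ± 1.19 (95% interval -0.92 to 1.495; limma, adjusted p = 0.868). The signals were strong on every array, 91.5, 75.5 and 47.8 times background in cKO and 47.1, 25.0 and 59.3 times in control, and the scanner's ratios were 0.74, 1.12 and -1.17. Without array 3 the mean was 0.97, and without array 2 it was -0.13. Wnt10b, a close relative of Wnt10a, shared the order of signs with 0.59, 0.97 and -0.15, a mean of 0.47 ± 0.57 (limma, adjusted p = 0.525).

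Wnt5a, the main ligand of the branch that acts without beta-catenin, was near the limit of detection. Control signal was well above background on 2 of 3 arrays. Ratios of -0.044, 0.20 and -0.18 averaged -0.0062 ± 0.19 (95% interval -0.37 to 0.36; limma, adjusted p = 0.993), while the scanner's ratios spread from -1.18 to 0.51. Wnt2b, a beta-catenin ligand, gave 0.51, -0.31 and -0.15, a mean of 0.019 ± 0.43 (limma, adjusted p = 0.987). Wnt6 gave 0.11, 0.0084 and -0.42, a mean of -0.098 ± 0.28 (limma, adjusted p = 0.869). Wnt5b, Wnt7b and Wnt9a, the other ligands tested, had means from 0.07 to 0.20. The median of the 11 ligands was 0.09, with 0.51, 0.20 and -0.15 on arrays 1 to 3.

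The remaining 8 ligands, Wnt1, Wnt3, Wnt3a, Wnt7a, Wnt8a, Wnt8b, Wnt9b and Wnt16, were not tested because neither genotype was well above background on all 3 arrays. Wnt7a, which is best known from the oviduct and uterus, had signals of 1.06 to 1.18 times local background over both channels and all arrays. Wnt1 was printed in 10 spots and was well above background on 2 arrays in cKO and 1 in control.

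All 10 Frizzled receptors were tested, and their ratios were mostly close to 0. Fzd7, a receptor of both Wnt branches, gave 0.53, 0.44 and 0.52, with the smallest spread of the 5 genes at an unadjusted p under 0.05 and a mean of 0.50 ± 0.05 (95% interval 0.18 to 0.81; limma, unadjusted p = 0.011, adjusted p = 0.282). The other Fzd7 probe, whose sequence is shown above, gave -0.017, -0.19 and -0.16, a mean of -0.12, so the higher value rests on 1 of 2 probes. With the mean over both probes the ratio was 0.19. Fzd1, a beta-catenin receptor, was higher in cKO on every array with 0.81, 0.11 and 0.33, a mean of 0.41 ± 0.36 (limma, adjusted p = 0.451).

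Fzd4, the receptor linked to corpus luteum function in mice, gave -0.29, 0.39 and -0.021, a mean of 0.025 ± 0.34 (95% interval -0.44 to 0.49; limma, adjusted p = 0.976). No common direction was seen over its arrays. Fzd8 had the lowest mean of the receptors, with -0.067, 0.018 and -0.23, a mean of -0.092 ± 0.12 (95% interval -0.43 to 0.25; limma, adjusted p = 0.845). Fzd9, the receptor with the E-box in the promoter window shown, had a mean of -0.064 ± 0.14. Wnt9a, the other gene with CACGTG among the windows read, had a mean of 0.07 ± 0.47, and both intervals included 0. The median of the 10 receptors was 0.043, with 0.05, 0.036 and 0.19 on arrays 1 to 3.

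A second probe above background was present for 9 of the 26 genes, and for 4, all Frizzled receptors, it had the opposite sign. Besides Fzd7 these were Fzd10 (0.15 and -0.23), Fzd5 (0.16 and -0.10) and Fzd3 (0.054 and -0.062), each given as the brighter probe's mean and then the other's. For Fzd5 the brighter probe was well above background in control on 2 of 3 arrays. Sfrp1, Wnt5b, Wnt6, Fzd2 and Fzd8 kept 1 sign over both probes.

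**Figure D2:**
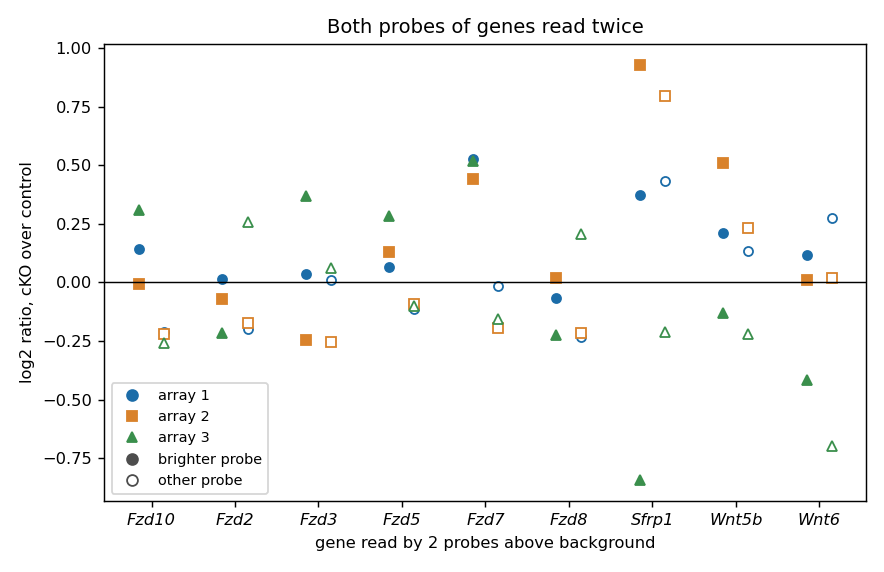
Log2 ratios of cKO over control (y axis) for the 9 genes with 2 probes above background (x axis), where filled symbols are the brighter probe, open symbols the other probe, and shapes arrays 1 to 3. For Fzd7 the brighter probe lies between 0.44 and 0.53 and the other at or below -0.017, while for Sfrp1 both probes have array 3 below 0.

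Of the SFRPs, which bind Wnt ligands in the extracellular space, 3 of 4 were tested and all had means above 0. Sfrp2 gave 3.52, 0.55 and 0.95 on arrays 1 to 3. All arrays were higher in cKO, array 1 far above the others. The mean was 1.68 ± 1.61, a 3.20-fold difference (95% interval 0.07 to 3.29; limma, unadjusted p = 0.044, adjusted p = 0.389). Signal over background was 143, 12.8 and 18.8 in cKO and 10.1, 4.97 and 6.59 in control, so array 1 stood out in the cKO channel. Arrays 2 and 3, on one slide, averaged 0.75. With slide as a term in the model, array 1 counts as much as arrays 2 and 3 together, and the value was 2.14. Array 1 is alone on its slide in that fit, so its distance from arrays 2 and 3 adds nothing to the error. Sfrp2 passed the threshold there, the single case in which a gene of these families did so. The error used was only that between arrays 2 and 3 and that borrowed from all genes.

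Sfrp4, known from luteinising granulosa cells and the corpus luteum, gave a strong signal in both genotypes. Signal over background was 1165, 981 and 1044 in cKO and 703, 412 and 444 in control. No spot was saturated. Ratios of 0.76, 0.79 and 0.27 gave a mean of 0.61 ± 0.29 (95% interval 0.18 to 1.03; limma, unadjusted p = 0.015, adjusted p = 0.296). The scanner's ratios were 0.55, 0.59 and 0.13, again all higher in cKO and lowest on array 3.

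Sfrp1 gave 0.37, 0.93 and -0.84, a mean of 0.15 ± 0.91 (95% interval -0.79 to 1.10; limma, adjusted p = 0.916). Its other probe followed with 0.43, 0.79 and -0.21. Both probes put arrays 1 and 2 higher in cKO and array 3 lower. Without array 3 the mean was 0.65, and without array 2 it was -0.24. Sfrp5 was not tested, with cKO well above background on 2 arrays and control on none. The median of the 3 SFRPs was 0.61, and 2 of 3 were higher on all arrays.

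Of the DKK genes, Dkk2 and Dkk3 were tested, while Dkk1 and Dkk4 were above background in neither genotype on any array. Dkk2, a modulator of LRP co-receptors, gave -0.10, 0.028 and -0.0029, a mean of -0.026 ± 0.07 (95% interval -0.35 to 0.30; limma, adjusted p = 0.961). Its spot was dim, with signal over background of 2.73, 2.86 and 2.05 in cKO and 2.49, 1.83 and 1.89 in control. The scanner's ratios for Dkk2 were -0.39, -0.11 and -0.025. Dkk3, a divergent member of the family, gave -0.045, 0.52 and -0.89, a mean of -0.14 ± 0.71 (95% interval -0.91 to 0.62; limma, adjusted p = 0.901). Array 2 was higher and array 3 lower in cKO. Neither gene had a direction that held over the arrays after loess, though the scanner's ratios for Dkk2 were all below 0.

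Array 3 went against arrays 1 and 2 in several of these genes. Ratios were above 0 on arrays 1 and 2 and below 0 on array 3 in 6 of the 26 genes (23.1%), where 17.3% of all genes were so. Cell type markers moved with the arrays as well. Smooth muscle markers had medians of 0.28, 0.93 and -0.98, and 7 of 8 were above 0 on arrays 1 and 2 and below 0 on array 3. Their summed signal over background ran from 762 to 1602 in cKO and 487 to 976 in control. Macrophage markers had medians of 0.95, 1.07 and -0.45, with 6 of 9 in that order of signs and sums of 898 to 1800 in cKO and 329 to 451 in control. Fibroblast markers stood at 0.48, 0.88 and 0.16, with sums of 1381 to 1887 in cKO and 662 to 1193 in control. Of the 10 fibroblast genes, 8 had means above 0 and 2 below. Those below were Lum, with -0.54, -0.22 and -0.08, and Tcf21, with 0.16, 0.59 and -1.10. At an unadjusted p under 0.05 by limma there were 4 of the 10, all higher, against 5.9% of all genes. Among those 4, Col1a1, Col3a1 and Col5a1 had means of 1.02, 0.59 and 1.25 by the brighter probe. Their other probes had lower means of 0.36, 0.05 and 0.14. The fibroblast medians were above 0 on all 3 arrays, as were Wnt10a, Wnt2, Fzd7, Sfrp2 and Sfrp4. The part of these cell types in the values of those 5 genes and of Wnt4, Wnt10b, Sfrp1 and Dkk3 was not tested.

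Array 1 carried other markers. Ovarian surface epithelium had medians of 0.80, -0.46 and -0.63 (8 of 8 genes tested, sums of 924 to 2354 in cKO and 883 to 1239 in control). Oviduct epithelium had 1.25, -0.45 and 0.09, with Pax8, Pax2 and Dnah5 not tested. Its sums were 272 to 675 in cKO and 292 to 373 in control. The oviduct genes did not move alike. Epcam, Cdh1 and Krt7, the last of which is in both lists, gave 1.28, 1.38 and 0.81 on array 1. Ovgp1 gave 1.25, -3.43 and 0.93 on arrays 1 to 3, and Foxj1 gave 0.14, -0.12 and 0.18. Sfrp2, Wnt10a, Wnt2b and Wnt9a were highest on array 1. So were Wnt2, Wnt6, Wnt7b, Wnt11, Fzd1, Fzd2, Fzd6 and Fzd7, some of them by little. The part of both epithelia in the array 1 values of all these genes was not tested. Endothelial markers had medians of 0.05, 0.08 and -0.17 (sums of 275 to 289 in cKO and 185 to 283 in control). Single genes were split, with 2 of 9 above 0 on all 3 arrays and 3 below 0 on all 3. Luteal markers had medians of -0.10, -0.41 and -0.71 (sums of 3612 to 4772 in cKO and 3846 to 4479 in control). Among them Star, which brings cholesterol into mitochondria for steroid synthesis, was the single marker gene past the adjusted threshold, with -4.05, -3.98 and -4.23 (limma, adjusted p = 0.0195). Lhcgr, the receptor of luteinising hormone, had a mean of -0.86 with all arrays below 0. The luteal list was split, with 6 means below 0 and 2 above. Those above were Ptgfr, with 1.32, 0.74 and 1.16 (other probe 0.25), and Akr1c18, with 2.85, -0.38 and 2.64. Medians on arrays 1 to 3 were -0.42, -0.11 and 0.0084 for granulosa, -0.026, 0.32 and -0.36 for theca (Insl3 not tested) and -0.31, -0.44 and 0.23 for oocyte markers. In whole ovaries, a change in the number of cells of a type and a change in RNA per cell cannot be told apart.

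**Figure D3:**
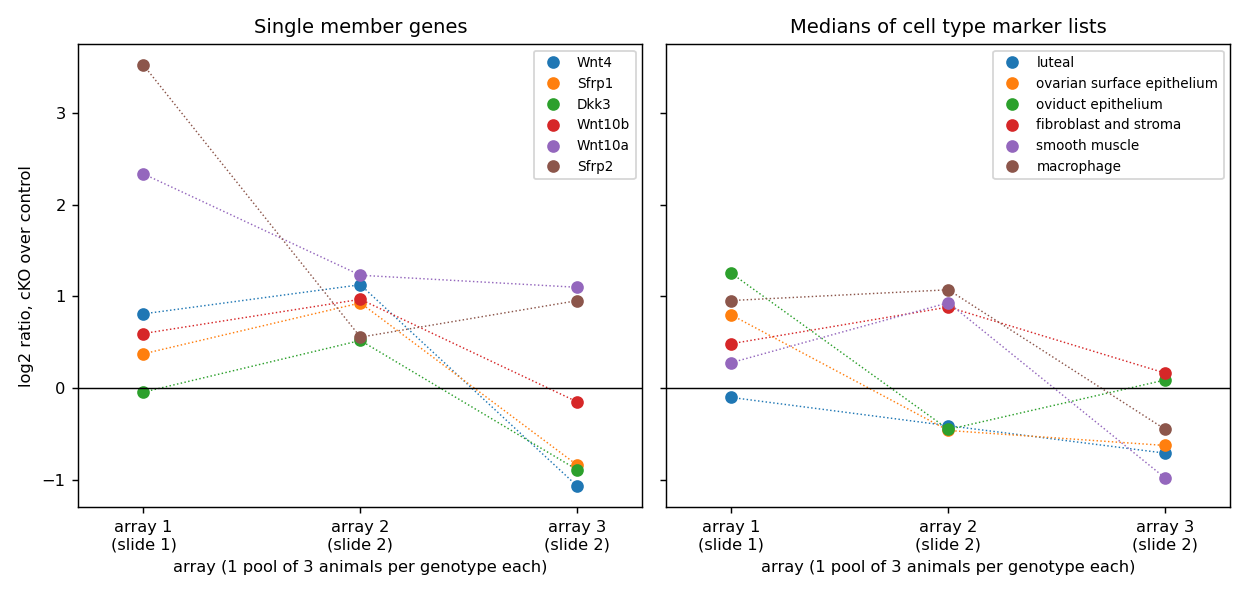
Log2 ratios of cKO over control (y axis) on arrays 1 to 3 (x axis, with the slide of each), for 6 single genes (left) and as medians of 6 marker lists (right), with dotted lines that only join values of one gene or list. Wnt4, Sfrp1 and Wnt10b lie above 0 on arrays 1 and 2 and below 0 on array 3, as do the smooth muscle and macrophage medians, while Sfrp2 and the oviduct median are highest on array 1.

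The rest of the pathway was read through 9 lists with 80 genes, of which 71 were tested. None passed the adjusted threshold by limma. At an unadjusted p under 0.05 there were 11, of which 7 were higher and 4 lower in cKO, or 15.5% against 12.3% of all genes. The median of the 71 was 0.01.

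Of 3 genes for ligand release and modification, 2 were tested and neither passed the adjusted threshold. Porcn, the enzyme that attaches the lipid to Wnt proteins, gave 0.93, 0.92 and 0.43, a mean of 0.76 ± 0.29 (limma, adjusted p = 0.253). Wls, the carrier that takes Wnt proteins to the cell surface, gave 0.96, 0.37 and 0.38, a mean of 0.57 ± 0.34 (limma, adjusted p = 0.337), and its other probe a mean of 0.26. Every array was above 0 for both genes by the brighter probe. Notum, which removes the lipid, was not tested.

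At the cell surface, Rspo1, the R-spondin that strengthens Wnt signals in the female gonad, gave 1.71, 0.59 and 0.57, a mean of 0.95 ± 0.65 (limma, adjusted p = 0.320). Lgr5, a receptor of R-spondins, had the lowest mean of that list at -0.41 ± 0.96, from 0.70, -0.92 and -1.005. Array 1 was again the highest for both. Rspo3 and Rspo4 were not tested. Co-receptors and alternative receptors ran from Ptk7 at -0.27 to Ryk at 0.40, with a median of 0.028 over 6 genes (Musk not tested). Other antagonists and DKK receptors ran from Dkkl1 at -0.26 to Kremen1 at 0.024, with a median of -0.17 over 5 (Wif1, Kremen2 and Sostdc1 not tested). Glypicans, the heparan sulphate carriers of Wnt proteins, ran from Gpc4 at -0.34 to Gpc1 at 0.15, with Gpc5 not tested. Gpc4 was lower in cKO on all arrays, and its other probe had a mean of -0.037.

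Inside the cell, 15 dishevelled and destruction complex genes had a median of 0.12, from Apc2 at -0.52 to Axin2 at 0.56 (Dvl3 not tested). Axin2, a scaffold of the complex and itself a target of beta-catenin, gave 0.75, 0.64 and 0.30, a mean of 0.56 ± 0.23 (limma, adjusted p = 0.296). Apc2, a relative of the tumour suppressor Apc, gave -0.71, -0.71 and -0.13 (limma, adjusted p = 0.360). Axin2 was thus higher, and Apc2 lower, on each array. Ctnnbip1, which keeps beta-catenin from TCF factors and is named here after its value was seen, gave -0.46, -0.36 and -0.41, a mean of -0.41 ± 0.05 (limma, adjusted p = 0.330).

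TCF/LEF factors and co-activators had a median of -0.021 over 12 genes. The list held Tcf7 at the top, with 0.54, 0.26 and 0.48 (mean 0.43, limma, adjusted p = 0.339; other probe 0.23). At its bottom was Tcf7l2 with -0.69, -0.39 and -0.82 (mean -0.63, limma, adjusted p = 0.266), whose other 2 probes gave -0.12 and -0.094. Planar cell polarity genes, the machinery of the branch without beta-catenin, ran from Prickle2 at -0.22 to Vangl1 at 0.27, with a median of 0.05 over 10 genes.

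Targets and feedback genes of the pathway were split, with 8 of 16 above 0 and a median of -0.018 (Notum not tested). Cd44, a cell surface glycoprotein that immune and stromal cells also carry, gave 1.92, 1.65 and 1.27, a mean of 1.62 ± 0.33 (limma, unadjusted p = 0.00031, adjusted p = 0.0955). Its other probe had a mean of 1.54. All arrays and both probes were higher in cKO, and with no offset in the background correction the adjusted p was 0.0394. The macrophage marker medians above moved with it on arrays 1 and 2 and not on array 3. Single macrophage genes were split, with 6 of 9 in that order of signs. Lyz2, with 2.46, 1.23 and 0.46, and Fcgr1, with 0.92, 1.08 and 0.20 (other probe 0.08), were above 0 on all 3 arrays. Mrc1 was below 0 on all 3. The fibroblast medians were above 0 on all 3 arrays. The part of both cell types in Cd44 was not tested. Nkd1, a feedback inhibitor of Wnt signals named after its value was seen, gave 0.96, 0.90 and 0.65, a mean of 0.83 ± 0.16 (limma, adjusted p = 0.196), but its other probe had a mean of -0.14. The lowest of the list was Lgr5, given above.

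**Figure D4:**
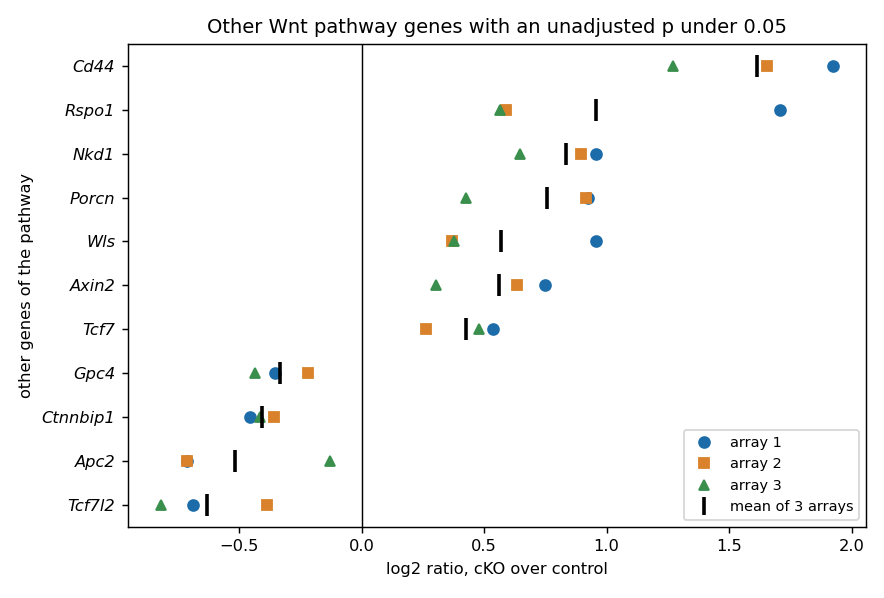
Log2 ratios of cKO over control (x axis) for the 11 other Wnt pathway genes with an unadjusted p under 0.05 (y axis), with points for arrays 1 to 3 and a black bar for the mean of the brighter probe. Cd44 is highest with 1.27 to 1.92, and the 4 lower genes lie between -0.82 and -0.13 on every array.

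The scanner's processed ratios, which use another background and dye correction, gave the same order at the top. By both measures Sfrp2 and Wnt10a were first and second, with scanner means of 1.96 and 1.86. Wnt2 came next by the scanner at 0.88. Sfrp4 and Fzd7 had lower scanner means of 0.42 and 0.34, with unadjusted p-values by limma of 0.11 and 0.16. Median centring in place of loess moved the median of all genes by 0.12. Relative to that shift 18 of the 26 genes lay above the median, as many as with loess, though 23 lay above 0.

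**Figure D5:**
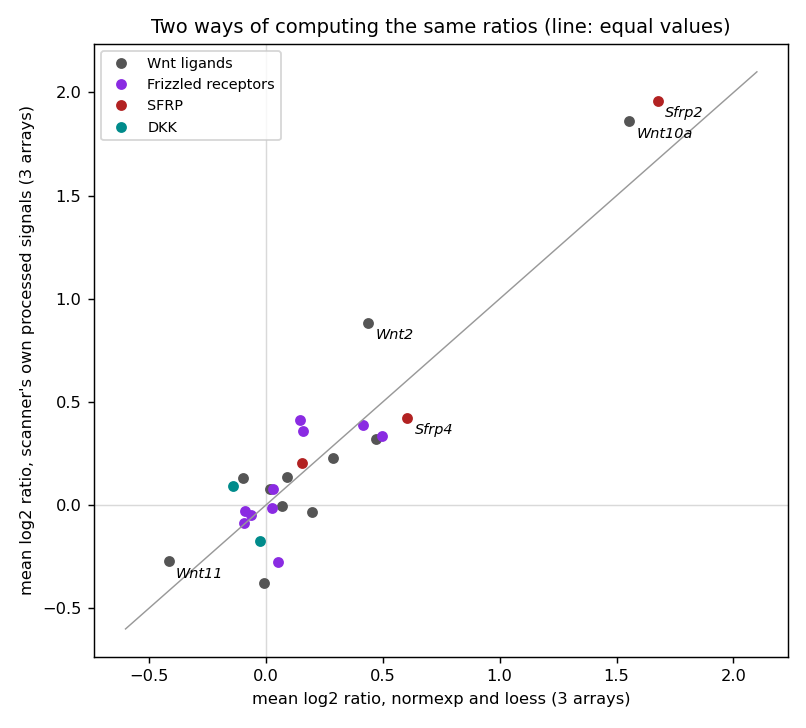
Mean log2 ratio of cKO over control by normexp and loess (x axis) against the mean of the scanner software's own ratios (y axis), each over 3 arrays, for the 26 genes tested, coloured by family, with a line at equal values. Sfrp2 and Wnt10a stand apart at the upper right by both measures, Wnt2 lies above the line at 0.88 by the scanner, and the other genes lie between -0.41 and 0.61 on the x axis.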

How the data were processed

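RNA of whole ovaries was measured on 3 two-colour Agilent arrays, each taken as 1 replicate, a within-spot ratio of a cKO pool over a control pool. Per the labels' protocols, tissue was kept in RNAlater, extracted with a Qiagen RNeasy kit, and then amplified and dye-labelled with an Agilent low input kit. Spot and background intensity values, deposited as scanned, and processed intensity values, corrected for background and dye by the scanner software, were made, per the file headers, by Agilent Feature Extraction 9.1.3.1. Its deposited log10 ratios put red over green, so control over cKO; they were turned round and put on the log2 scale. The series' value table holds the same log10 values (largest difference 0; median 0 on each array). What else was done before deposit is not stated in these sources.

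Background was removed from mean signals by normexp on the local median (offset 50), which pulls dim ratios toward 0, and normalised by loess within arrays, control spots at weight 0, in limma 3.58.1 under R 4.3.3. Outlier spots (13, 4 and 0) were left out and replicate spots averaged. Spots well above background made up 67.4% to 69.1% in the cKO and 62.9% to 65.8% in the control channel. A probe was kept if well above background in 1 genotype on all 3 arrays, and the brightest read the gene. Of 43379 spots, 26788 were named through RefSeq accessions, 6252 by symbol and 1810 by synonym; 8529 kept the file's name, and 1 more spot that RefSeq names Fzd3 was left out of the families. Ratios were tested against 0 with lmFit and eBayes, two-sided, and p-values adjusted by Benjamini-Hochberg across 17856 genes; the script was tested on simulated data. By this 32 genes passed, 13 higher and 19 lower in cKO (27 and 26 with the scanner's ratios).

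The genes and lists were chosen with earlier results of these data known. Named were members at an unadjusted p under 0.05, the extremes of each family, and Wnt2b, Wnt4, Wnt5a, Wnt7a, Fzd1, Fzd4, Sfrp1, Sfrp4 and Dkk3, array by array where tested; of each pathway list, the highest and lowest mean. Alternatives were the scanner's ratio, no offset, median centring, scaling between arrays, 2 other filters, slide as a term, the mean over probes, and leaving out each array.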

Additional observations from a re-analysis of the deposited data

How the results depend on the processing

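With 32 genes passing the threshold of 0.05 in the whole table, the count was 53 with the scanner's ratios, 59 with no normexp offset, 1 with median centring, 0 with arrays scaled to one spread (limma, 2299 at an unadjusted p under 0.05), 0 with no filter on dim probes (3182 at that mark) and 0 to 21 with an array left out (1, 21 and 0 without arrays 1, 2 and 3; 770, 1387 and 4784 at that mark). Among the Wnt, Frizzled, SFRP and DKK genes the count was 0 under every alternative except slide as a term, with 1 (Sfrp2). At an unadjusted p under 0.05 there were 3 with the scanner's ratios, 3 with slide as a term and 2 to 7 with an array left out, against 5. Other pathway genes passing numbered 1 with no offset (Cd44) and 0 under the other alternatives; the 11 at an unadjusted p under 0.05 all kept their sign. The Frizzled median was 0.193 with median centring, which moved all genes by 0.12. Of 186 values of 17 named genes under 11 alternatives, 165 kept sign and side of the threshold, 1 newly passed and 20 changed sign, in genes with means near 0 or with arrays of opposite sign. These were Dkk3 at 0.092 and Wnt6 at 0.13 with the scanner's ratios and Fzd4 at -0.012; Dkk2 at 0.059, Dkk3 at 0.077, Wnt5a at 0.0046 and Wnt6 at 0.10 with median centring; Wnt2b at -0.067 and Wnt5a at 0.011 with no offset; Wnt5a at 0.0011 with scaling; Fzd4 at -0.055 with slide as a term. With an array left out, ranges were -0.054 to 0.012 for Dkk2, -0.47 to 0.24 for Dkk3, -0.16 to 0.18 for Fzd4, -0.24 to 0.65 for Sfrp1, -0.23 to 0.18 for Wnt2b, -0.13 to 0.97 for Wnt4, -0.11 to 0.0795 for Wnt5a and -0.21 to 0.0615 for Wnt6. The cause was not tested. The test of ratios against 0 already pairs the cKO pool and the control pool of each array. No further pairing was possible, because each array already is the ratio of both genotypes in the same spots. Spots near background limit Wnt5a, Wnt2b, Wnt7b, Wnt11, Fzd3, Fzd5, Fzd8, Fzd9, Fzd10 and Dkk2.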
